A study of Rattus norvegicus with 15 samples.

Results

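The genes described here bear names of extracellular matrix proteins, integrins, or proteases and inhibitors that remodel the matrix. They were read in the adrenal medulla and pheochromocytomas of MENX rats. A few, such as *Col4a3bp*, bear such a name without the function. Members were chosen by a rule on gene names that was set with earlier results of these data known. Of the 8621 genes in the deposited tables, 119 carry such a name. RNA-seq was performed on 15 snap-frozen medullas, 5 per group, after removal of the cortex by macrodissection, although cortex transcripts remained (below). The WT group holds wildtype rats of the strain labelled Sprague-Dawely, 7 to 9.5 months old, with normal medulla. The HYP group holds rats of that strain with the MENX genotype, 4 to 5 months old, with hyperplastic medulla, and the PCC group holds MENX rats, 7 to 9.5 months old, with pheochromocytoma. The PCC group mixes smaller and larger, advanced tumors, and the sample labels do not tell which are which. MENX rats are homozygous for a germline frameshift in *Cdkn1b*, the gene of the cell cycle inhibitor p27. HYP and WT rats differ in age as well as genotype, and these effects cannot be told apart. HYP and PCC rats share the genotype and differ in age and in the stage of the lesion.

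The extracellular matrix is a network of collagens, glycoproteins and proteoglycans that cells secrete and then bind through integrins and syndecans. In the adrenal medulla, clusters of chromaffin cells lie against a dense net of capillaries, with basement membrane of laminins, type IV collagen and nidogen between them and fibrillar collagens from stromal cells. Metalloproteinases of the MMP, ADAM and ADAMTS families cut these proteins, and tissue inhibitors and serpins hold proteolysis in check.

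Depth ran from 16315018 to 23831269 counted reads per sample. Each of the 3 deposited tables covers a pair of groups and lists only genes that the authors had called as different, with 7683 genes in PCC vs. WT, 4406 in HYP vs. WT and 3360 in PCC vs. HYP. These tables listed 103, 62 and 49 of the 119 members, of which 104 had enough counts to be tested in at least 1 comparison and 15 did not, and every count below starts from genes already called on the same samples. Levels are given as CPM, counts normalized on a common scale over the 15 samples, with samples in the order of replicates 1 to 5. Pairs of groups were tested by edgeR's quasi-likelihood method with Benjamini-Hochberg adjustment, counting in the genes outside each table, and a gene was called at an adjusted *p* under 0.05. SE stands for the standard error of each log2 value. Where a call was lost when a library was left out, or under another scaling or tool, this is stated beside its *p*. For some members that did not pass, the value without a certain library is given because that value passed. Their values without the other libraries are not listed. *Cdkn1b* itself was transcribed in all samples, with 71.1, 58.6, 52.7, 55.3 and 45.5 CPM in WT, 98.99, 126, 96.7, 81.5 and 102 CPM in HYP, and 176, 149, 132, 168 and 109 CPM in PCC.

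The tissue was checked with marker genes. Of 10 chromaffin cell markers 7 were listed in all 15 samples, and their summed level was 5885, 7364, 5379, 5029.5 and 1702 CPM in WT, 12708, 10874, 7952, 9884 and 12159 CPM in HYP, and 28335, 16826, 16057, 21941 and 14475 CPM in PCC. *Th* or *Dbh*, which encode 2 enzymes of catecholamine synthesis, was the largest part of this sum in each sample. WT replicate 5 stood apart with the lowest sum, and every PCC sample lay above every HYP sample. Of 13 adrenal cortex markers 10 were listed, 8 of them in all samples. *Cyp21a1*, the steroid 21-hydroxylase gene, was the largest part of their sum in each sample. The 8 summed to 26325, 24768, 39498, 56284 and 52144 CPM in WT, 21412, 12131, 30805, 21422 and 17798 CPM in HYP, and 12789.6, 2762, 10031, 829.8 and 13808 CPM in PCC. Cortex transcripts were thus present in every library, highest in WT replicates 4 and 5 and lowest in PCC replicates 2 and 4. The cortex sum exceeded the chromaffin sum in every WT and HYP sample and lay below it in every PCC sample. Rises and falls in PCC vs. WT thus both set tissue with fewer cortex transcripts against tissue with more. How much of any change came from cortex tissue was not tested. In bulk tissue, fewer cells of a type and less RNA per cell cannot be told apart, and this holds for every change below.

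Matrix genes moved in both directions. In PCC vs. WT 15 of 103 listed members had too few counts to test, and of the 88 tested 39 (44.3%) were higher and 31 (35.2%) lower in PCC, beside 46.7% and 38.5% of all 7001 genes tested. The median log2 fold change was 0.64 over these members and 0.44 over all genes. In HYP vs. WT 31 (55.4%) of 56 tested members were higher and 16 (28.6%) lower, beside 39.5% and 32.5% of 4108 genes, with medians of 0.99 and -0.37. In PCC vs. HYP 13 (27.7%) of 47 tested members were higher and 11 (23.4%) lower, beside 21.8% and 22.6% of 3148 genes, with medians of -0.91 and 0.43. The 3 comparisons share samples by pairs, so their values are given side by side. These shares of all genes also stand beside the counts of each role and list below, which were not tested against them.

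Lower calls rested more on scaling than higher ones in each comparison, and more on single libraries in the 2 comparisons with HYP. Of the 39 members higher in PCC than in WT, 32 kept their call whichever of the 10 libraries was left out and 37 under each of 4 other scalings or tools, and of the 31 lower members 26 and 20 did. In HYP vs. WT these numbers were 24 and 30 of 31 higher members and 9 and 5 of 16 lower ones, and in PCC vs. HYP 10 and 13 of 13 higher and 1 and 5 of 11 lower ones. The 16 members lower in HYP than in WT became 9 without WT replicate 4 and 10 without HYP replicate 2, 4 or 5. The 11 members lower in PCC than in HYP became 3 without PCC replicate 2, 7 without PCC replicate 3 or HYP replicate 1, 5 without HYP replicate 2, 1 without HYP replicate 3 or 4 and 3 without HYP replicate 5. Under DESeq2 the lower members were 51 in PCC vs. WT and 28 in PCC vs. HYP. Scaling to the summed counts of listed genes (listed totals) gave 20 in PCC vs. WT, 5 in HYP vs. WT and 5 in PCC vs. HYP, and scaling to recovered library totals gave 9 in HYP vs. WT and 7 in PCC vs. HYP.

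**Figure D1:**
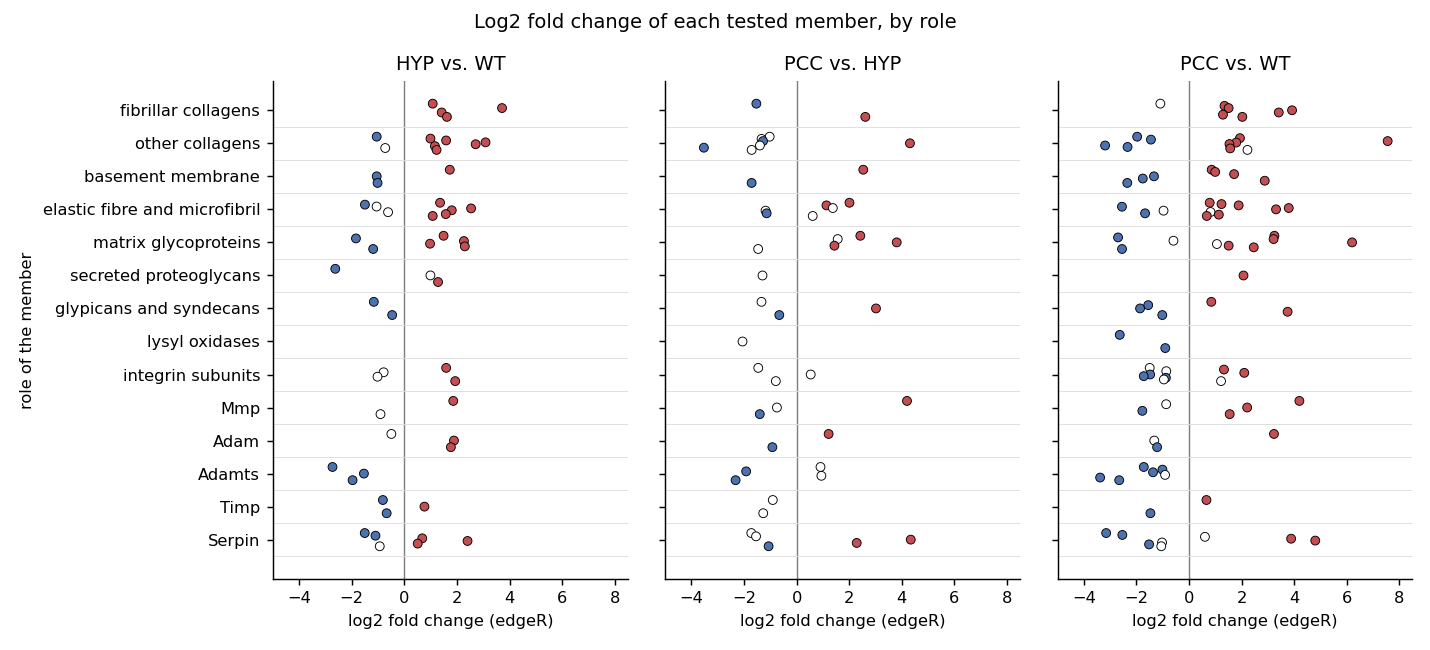
Log2 fold change (edgeR) of every tested member of 14 roles in the 3 comparisons; red, called higher, and blue, called lower in the group named first; white, not called. *Col22a1* had the highest value in PCC vs. WT, 7.56, and *Col6a5* the lowest in PCC vs. HYP, -3.53.

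Fibrillar collagens, which bundle into the fibers that give tissue its tensile strength, were mostly higher in MENX medullas. Of 7 members 6 rose in PCC vs. WT (5 kept under deposited size factors), and 4 of 4 tested rose in HYP vs. WT. The summed FPKM of the 6 with values in all samples was 12.6, 18.2, 9.13, 10.6 and 9.06 FPKM in WT, 35.7, 43.3, 29.6, 34.7 and 38.5 FPKM in HYP, and 17.1, 47.5, 51.6, 45.98 and 36.4 FPKM in PCC. Every HYP sample lay above every WT sample, whereas PCC replicate 1 lay within the WT range. *Col1a1*, which encodes a chain of type I collagen, had 12.95, 21.4, 12.9, 18.7 and 23.3 CPM in WT, 38.8, 45.5, 30.8, 42.3 and 37.5 CPM in HYP, and 24.7, 40.6, 78.3, 44.8 and 45.1 CPM in PCC. WT did not overlap with either MENX group. The means of *Col1a1* were 46.7 ± 19.6 CPM (SD, n = 5) in PCC against 17.9 ± 4.79 CPM in WT, a log2 change of 1.35 (SE 0.29, edgeR adjusted *p* = 0.00442), and HYP vs. WT gave 1.08 (SE 0.20, edgeR adjusted *p* = 0.00402). *Col3a1*, which encodes type III collagen of pliable tissue, had 14.6, 29.6, 12.7, 16.6 and 23.6 CPM in WT, 58.2, 66.2, 41.2, 46.98 and 58.8 CPM in HYP, and 28.9, 32.6, 84.6, 49.5 and 51.8 CPM in PCC. All HYP samples exceeded all WT samples, while PCC replicate 1 lay just below WT replicate 2. The log2 fold change of *Col3a1* was 1.29 (SE 0.33, edgeR adjusted *p* = 0.0112) in PCC vs. WT and 1.42 (SE 0.24, edgeR adjusted *p* = 0.00293) in HYP vs. WT. *Col1a2*, the partner chain of *Col1a1*, was listed only for PCC vs. WT, with overlapping ranges of 2.65 to 7.59 CPM in WT and 3.02 to 30.4 CPM in PCC and a value of 1.51 (SE 0.51, edgeR adjusted *p* = 0.0421, lost without WT replicate 1, 2, 3, 4 or 5 or PCC replicate 2, 3 or 5 at *p* up to 0.125 and under deposited size factors).

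*Col24a1*, a minor fibrillar collagen related to type V, changed most within this role in HYP vs. WT. It had 2.04, 3.84, 1.38, 5.41 and 1.45 CPM in WT, 35.6, 41.6, 36.9, 36.8 and 40.2 CPM in HYP, and 15.5, 67.1, 33.5, 71.4 and 31.96 CPM in PCC. No MENX sample overlapped with WT, and the HYP samples lay in a narrow band inside the wider PCC range. The means of *Col24a1* were 38.2 ± 2.55 CPM (SD, n = 5) in HYP against 2.82 ± 1.75 CPM in WT, a log2 change of 3.72 (SE 0.35, edgeR adjusted *p* = 0.000180), and PCC vs. WT gave 3.92 (SE 0.55, edgeR adjusted *p* = 0.000478). *Col2a1*, the cartilage collagen, was low, with 0 to 0.616 CPM in WT, 0.245 to 0.975 CPM in HYP and 2.02 to 8.14 CPM in PCC. PCC samples lay above all others, by a log2 fold change of 2.61 (SE 0.46, edgeR adjusted *p* = 0.00899) in PCC vs. HYP. *Col11a1*, which nucleates cartilage-type fibers, had 46.6, 39.7, 28.8, 27.2 and 18.2 CPM in WT, 56.3, 42.7, 36.3, 37.6 and 42.7 CPM in HYP, and 25.9, 14.3, 17.97, 3.24 and 18.3 CPM in PCC. All PCC samples lay below all HYP samples, at -1.53 (SE 0.41, edgeR adjusted *p* = 0.0428, lost without PCC replicate 2, 3 or 5 or HYP replicate 1, 2, 3, 4 or 5 at *p* up to 0.0965 and under listed totals) in PCC vs. HYP.

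Other collagens form networks, anchor to membranes or decorate fibers, and 5 of 10 tested rose and 4 fell in PCC vs. WT, while 6 of 8 rose and 1 fell (0 kept under listed totals) in HYP vs. WT. *Col22a1* (chromosome 7, 113015747 to 113228439), a fibril-associated collagen of tissue junctions such as that of muscle and tendon, had 0.285, 1.09, 0.531, 1.45 and 1.02 CPM in WT, 11.9, 4.76, 7.90, 5.62 and 7.70 CPM in HYP, and 134, 61.7, 114, 464 and 60.3 CPM in PCC. The 3 groups did not overlap, and PCC replicate 4 stood far above the other tumors. The means of *Col22a1* were 167 ± 169 CPM (SD, n = 5) in PCC against 0.874 ± 0.465 CPM in WT, a log2 change of 7.56 (SE 0.76, edgeR adjusted *p* = 0.000109), the largest change of any member in the 3 comparisons. It was 3.09 (SE 0.40, edgeR adjusted *p* = 0.000808) in HYP vs. WT and 4.31 (SE 0.58, edgeR adjusted *p* = 0.00273) in PCC vs. HYP. Leaving out PCC replicate 4 gave 6.70 in PCC vs. WT and 3.49 in PCC vs. HYP.

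*Col28a1*, a collagen described in peripheral nerve, was highest in HYP, with 1.80, 4.88, 2.55, 3.03 and 2.03 CPM in WT, 13.6, 36.7, 18.01, 12.4 and 17.6 CPM in HYP, and 4.41, 15.4, 15.5, 3.24 and 13.4 CPM in PCC. HYP and WT did not overlap, and HYP replicate 2 was far above the other HYP samples. The log2 fold change of *Col28a1* was 2.71 (SE 0.37, edgeR adjusted *p* = 0.00100) in HYP vs. WT and 1.80 (SE 0.50, edgeR adjusted *p* = 0.0171) in PCC vs. WT. *Col16a1*, which associates with fibrils and microfibrils, rose in both MENX groups, at 1.59 (SE 0.28, edgeR adjusted *p* = 0.00360) in HYP vs. WT and 1.94 (SE 0.34, edgeR adjusted *p* = 0.00154) in PCC vs. WT. *Col6a5*, a chain of the beaded filaments of type VI collagen, was near the limit of detection, with 2.42, 1.80, 1.06, 2.24 and 1.09 CPM in WT, 1.38, 2.29, 2.21, 2.64 and 2.04 CPM in HYP, and 0.0464, 0.144, 0.0946, 0.0476 and 0.603 CPM in PCC. All WT and HYP samples lay above all PCC samples, of which PCC replicate 5 was the highest. The means of *Col6a5* were 0.187 ± 0.236 CPM (SD, n = 5) in PCC against 2.11 ± 0.464 CPM in HYP, a log2 change of -3.53 (SE 0.60, edgeR adjusted *p* = 0.00729), and PCC vs. WT gave -3.19 (SE 0.64, edgeR adjusted *p* = 0.00319). Leaving out PCC replicate 5 gave -4.68 in PCC vs. HYP and -4.32 in PCC vs. WT. *Col20a1*, a fibril-associated collagen, had 23.7, 22.6, 17.4, 24.7 and 20.1 CPM in WT, 25.8, 13.2, 19.3, 17.6 and 16.5 CPM in HYP, and 6.54, 7.41, 11.1, 4.57 and 11.5 CPM in PCC. WT and HYP intermingled and PCC samples lay below both, at -1.45 (SE 0.27, edgeR adjusted *p* = 0.00202) in PCC vs. WT and -1.28 (SE 0.29, edgeR adjusted *p* = 0.0246, lost without PCC replicate 2 or HYP replicate 1, 3 or 4 at *p* up to 0.0649 and under listed totals) in PCC vs. HYP. *Col4a3bp*, which bears a collagen name but encodes a ceramide transfer protein, had -0.51 (SE 0.17, edgeR adjusted *p* = 0.0335, lost without WT replicate 1, 3 or 5 or PCC replicate 2, 3, 4 or 5 at *p* up to 0.0943 and under library totals or listed totals) in PCC vs. WT.

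Of 7 basement membrane genes tested in PCC vs. WT 4 (57.1%) were higher and 3 (42.9%) lower (2 kept under library totals or listed totals). Over all genes tested these shares were 46.7% and 38.5%. *Nid1* (chromosome 17, 90553394 to 90627101), the nidogen that links laminin to type IV collagen, had 195, 295, 515, 1071 and 936 CPM in WT, 238, 195, 559, 431 and 361 CPM in HYP, and 136, 70.5, 208, 54.5 and 122.8 CPM in PCC. WT replicates 1 and 2 were the lowest WT samples, and WT replicate 1 lay below PCC replicate 3. The means of *Nid1* were 118 ± 60.7 CPM (SD, n = 5) in PCC against 602 ± 387 CPM in WT, a log2 change of -2.35 (SE 0.48, edgeR adjusted *p* = 0.00345), and PCC vs. HYP gave -1.71 (SE 0.40, edgeR adjusted *p* = 0.0258, lost without PCC replicate 2 or HYP replicate 3, 4 or 5 at *p* up to 0.0728). PCC replicates 2 and 4 had the lowest *Nid1* and the lowest cortex marker sums, and the part of cortex tissue in this difference was not tested. *Lamb2*, a laminin chain of vessel basement membranes, fell at -1.02 (SE 0.17, edgeR adjusted *p* = 0.00292, lost under listed totals) in HYP vs. WT and -1.76 (SE 0.28, edgeR adjusted *p* = 0.000997) in PCC vs. WT, with 223 to 297 CPM in WT, 113 to 177 CPM in HYP and 43.6 to 129.6 CPM in PCC.

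*Col4a1*, a chain of the type IV collagen of nearly all basement membranes, was listed only for PCC vs. WT and had 114, 153, 111, 157 and 196 CPM in WT and 188, 266, 499, 295 and 242 CPM in PCC. PCC replicate 1 lay below WT replicate 5, and the other PCC samples were above all WT samples. The means of *Col4a1* were 298 ± 119 CPM (SD, n = 5) in PCC against 146 ± 34.9 CPM in WT, a log2 change of 1.00 (SE 0.26, edgeR adjusted *p* = 0.0117). *Col4a4*, a chain of a type IV network known from kidney and inner ear, had 20.2 to 55.9 CPM in WT, 99.6 to 198 CPM in HYP and 63.1 to 197 CPM in PCC and rose at 1.73 (SE 0.28, edgeR adjusted *p* = 0.00205) in HYP vs. WT. *Lamc3*, a laminin chain, had 5.03, 5.59, 4.40, 5.67 and 3.41 CPM in WT, 4.08, 6.83, 6.80, 6.31 and 5.61 CPM in HYP, and 75.3, 17.04, 36.3, 50.001 and 8.01 CPM in PCC. WT and HYP overlapped and PCC lay above both, at 2.53 (SE 0.50, edgeR adjusted *p* = 0.0139) in PCC vs. HYP and 2.88 (SE 0.51, edgeR adjusted *p* = 0.00166) in PCC vs. WT. *Agrn*, the heparan sulfate proteoglycan agrin, overlapped between groups with 79.4 to 151 CPM in WT and 135 to 266 CPM in PCC and had a log2 fold change of 0.86 (SE 0.28, edgeR adjusted *p* = 0.0326, lost without WT replicate 3, 4 or 5 or PCC replicate 2, 3 or 5 at *p* up to 0.0856) in PCC vs. WT.

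Elastic fibre and microfibril genes give tissue recoil and store TGF-beta, and 7 of 11 tested rose and 2 fell in PCC vs. WT, while 5 of 8 rose and 1 fell (0 kept under library totals or listed totals) in HYP vs. WT. *Fbln1* (chromosome 7, 126096793 to 126176468), a fibulin of elastic fibers and basement membranes, had 3.08, 4.17, 4.30, 3.89 and 1.60 CPM in WT, 18.2, 25.2, 16.5, 19.8 and 23.6 CPM in HYP, and 37.3, 53.3, 50.5, 72.6 and 33.1 CPM in PCC. The 3 groups did not overlap. The means of *Fbln1* were 20.7 ± 3.64 CPM (SD, n = 5) in HYP against 3.41 ± 1.12 CPM in WT, a log2 change of 2.54 (SE 0.26, edgeR adjusted *p* = 0.000244), with 1.13 (SE 0.21, edgeR adjusted *p* = 0.0120) in PCC vs. HYP and 3.80 (SE 0.34, edgeR adjusted *p* = 9.87e-05) in PCC vs. WT. *Fbln2*, a fibulin of vessel walls, had 1.23 to 2.12 CPM in WT, 3.002 to 9.07 CPM in HYP and 5.29 to 28.8 CPM in PCC and rose at 1.80 (SE 0.30, edgeR adjusted *p* = 0.00243) in HYP vs. WT and 3.31 (SE 0.50, edgeR adjusted *p* = 0.000718) in PCC vs. WT. *Emilin1*, which lies between elastin and microfibrils, had 21.1, 18.9, 12.5, 18.4 and 10.8 CPM in WT, 18.4, 12.6, 7.60, 16.003 and 16.6 CPM in HYP, and 36.2, 55.2, 51.2, 139 and 33.2 CPM in PCC. WT and HYP overlapped and PCC lay above both, with replicate 4 highest, at 2.01 (SE 0.38, edgeR adjusted *p* = 0.0125) in PCC vs. HYP.

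*Eln*, elastin itself, was low and variable, with 3.84, 11.7, 4.03, 9.04 and 6.10 CPM in WT, 30.8, 11.5, 9.37, 22.3 and 18.8 CPM in HYP, and 16.6, 6.45, 21.8, 17.1 and 23.8 CPM in PCC. Each pair of groups overlapped, and the log2 fold change was 1.36 (SE 0.39, edgeR adjusted *p* = 0.0326, lost without WT replicate 1, 3 or 4 or HYP replicate 1, 4 or 5 at *p* up to 0.0785) in HYP vs. WT and 1.24 (SE 0.41, edgeR adjusted *p* = 0.0364, lost without WT replicate 1, 3, 4 or 5 or PCC replicate 1, 3, 4 or 5 at *p* up to 0.0886) in PCC vs. WT. *Fbn1*, fibrillin of microfibrils, ranged over 7.31 to 23.7 CPM in WT and 12.8 to 32.5 CPM in PCC with WT replicate 5 the highest WT sample, and did not pass at 0.82 (SE 0.32, edgeR adjusted *p* = 0.0715) in PCC vs. WT. Without that replicate *Fbn1* was at 1.09 (edgeR adjusted *p* = 0.0127). *Ltbp3*, a latent TGF-beta binding protein with the highest mean FPKM of the role in each group, had 183 to 237 CPM in WT, 144 to 232 CPM in HYP and 218 to 481 CPM in PCC and a value of 0.68 (SE 0.21, edgeR adjusted *p* = 0.0272, lost without WT replicate 1, 2, 3 or 4 or PCC replicate 4 at *p* up to 0.0747) in PCC vs. WT. *Ltbp1*, a relative with the same function, had 29.1, 31.7, 19.05, 27.6 and 14.01 CPM in WT, 15.7, 14.6, 15.6, 18.4 and 17.7 CPM in HYP, and 8.91, 3.13, 11.6, 6.57 and 10.1 CPM in PCC. All PCC samples lay below all WT and HYP samples, at -1.67 (SE 0.36, edgeR adjusted *p* = 0.00474) in PCC vs. WT and -1.14 (SE 0.30, edgeR adjusted *p* = 0.0406, lost without PCC replicate 4 or HYP replicate 1, 2, 3, 4 or 5 at *p* up to 0.0936 and under deposited size factors or library totals or listed totals) in PCC vs. HYP.

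Matrix glycoproteins link cells to fibers, and 5 of 9 tested rose and 2 fell in PCC vs. WT. *Sparcl1* (chromosome 14, 6994190 to 7025308), a secreted relative of SPARC made by vessel-associated cells and astrocytes, had 4.18, 14.9, 4.88, 21.1 and 5.59 CPM in WT, 51.1, 53.8, 45.03, 50.8 and 49.1 CPM in HYP, and 700.1, 412, 622, 1862 and 258 CPM in PCC. The 3 groups did not overlap, and PCC replicate 4 was far above the other tumors. The means of *Sparcl1* were 771 ± 635 CPM (SD, n = 5) in PCC against 10.1 ± 7.53 CPM in WT, a log2 change of 6.20 (SE 0.74, edgeR adjusted *p* = 0.000223). It was 2.27 (SE 0.41, edgeR adjusted *p* = 0.00383) in HYP vs. WT and 3.81 (SE 0.46, edgeR adjusted *p* = 0.00193) in PCC vs. HYP. Without PCC replicate 4 these tumor values were 5.57 against WT and 3.20 against HYP. *Fn1*, fibronectin, on which collagen fibers assemble, had 9.63, 12.4, 7.59, 21.6 and 17.9 CPM in WT, 19.01, 26.4, 16.1, 25.2 and 26.3 CPM in HYP, and 42.5, 191, 238, 166 and 24.9 CPM in PCC. PCC replicates 2, 3 and 4 lay far above all HYP samples, while PCC replicate 5 lay within the HYP range. The means of *Fn1* were 132 ± 93.9 CPM (SD, n = 5) in PCC against 13.8 ± 5.82 CPM in WT, a log2 change of 3.25 (SE 0.59, edgeR adjusted *p* = 0.00187), and PCC vs. HYP gave 2.42 (SE 0.52, edgeR adjusted *p* = 0.0197, lost without HYP replicate 3 or 4 at *p* up to 0.0664).

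*Postn*, periostin of collagen-rich stroma, stayed low, with 0.190, 0.663, 0.159, 0.132 and 1.02 CPM in WT, 0.627, 3.47, 0.858, 0.688 and 0.663 CPM in HYP, and 1.72, 3.90, 7.71, 4.90 and 2.20 CPM in PCC. PCC lay above WT in all samples, at 3.22 (SE 0.62, edgeR adjusted *p* = 0.00260) in PCC vs. WT, and HYP replicate 2 lay within the PCC range. In PCC vs. HYP *Postn* did not pass at 1.56 (SE 0.57, edgeR adjusted *p* = 0.120), and without HYP replicate 2 it was at 2.37 (edgeR adjusted *p* = 0.0245). *Thbs1*, thrombospondin, which restrains vessel growth, had 25.6, 31.5, 8.91, 11.6 and 9.88 CPM in WT, 9.22, 17.8, 11.3, 12.6 and 15.2 CPM in HYP, and 27.7, 35.1, 52.7, 53.05 and 26.5 CPM in PCC. All PCC samples lay above all HYP samples, at 1.44 (SE 0.25, edgeR adjusted *p* = 0.00798) in PCC vs. HYP, while WT replicate 2 lay within the PCC range. *Thbs1* did not pass in PCC vs. WT at 1.06 (SE 0.42, edgeR adjusted *p* = 0.0798), and without WT replicate 2 it was at 1.42 (edgeR adjusted *p* = 0.0205). *Sparc*, a collagen-binding protein of basement membranes, was listed only for PCC vs. WT, with 422, 426, 460.2, 382 and 702 CPM in WT and 198, 273, 467, 291 and 388 CPM in PCC. WT replicate 5 stood above all other samples, and the groups overlapped. *Sparc* did not pass at -0.59 (SE 0.24, edgeR adjusted *p* = 0.0938), and without PCC replicate 3 it was at -0.73 (edgeR adjusted *p* = 0.0496).

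*Tnr*, tenascin of the nervous system, had 32.8, 56.2, 48.7, 32.1 and 16.9 CPM in WT, 68.1, 265, 151, 198 and 279.8 CPM in HYP, and 271, 218, 318, 127 and 152 CPM in PCC. No MENX sample overlapped with WT, and HYP and PCC overlapped. The log2 fold change of *Tnr* was 2.30 (SE 0.40, edgeR adjusted *p* = 0.00305) in HYP vs. WT and 2.46 (SE 0.37, edgeR adjusted *p* = 0.000722) in PCC vs. WT. *Matn4*, a filament-forming matrilin, had 3.70 to 17.3 CPM in WT, 0.840 to 4.77 CPM in HYP and 0.238 to 3.36 CPM in PCC and fell at -2.70 (SE 0.62, edgeR adjusted *p* = 0.00643) in PCC vs. WT and -1.84 (SE 0.49, edgeR adjusted *p* = 0.0235, lost without WT replicate 4 or HYP replicate 4 or 5 at *p* up to 0.0611 and under listed totals) in HYP vs. WT. Part of *Matn4* overlaps *Rbpjl* on the opposite strand, so its reads are uncertain. WT replicates 1 and 2 and PCC replicates 2 and 4 had the lowest *Matn4* of their groups, as for the cortex marker sum. The part of cortex tissue in the *Matn4* fall was not tested. *Tnxb* (chromosome 20, 4436419 to 4486680), tenascin-X of connective tissue, overlaps *C4a* over 50262 bases and *Cyp21a1* over 462 bases, each on the opposite strand, and the library kit does not mark strand, so its reads are uncertain. *Tnxb* had 650.4, 603, 663, 885 and 1153 CPM in WT, 442, 189, 366, 452 and 325 CPM in HYP, and 170.2, 47.4, 158, 19.6 and 295 CPM in PCC. WT samples were above all others, and PCC replicates 2 and 4 were the lowest. These 2 were also the lowest for *Cyp21a1*, with 8686, 7834, 12880.5, 16667 and 19258 CPM in WT, 8942, 4427, 10567, 7907 and 6367 CPM in HYP, and 5166, 932, 3516, 299.9 and 5178 CPM in PCC, where WT and HYP overlapped. *C4a*, a complement gene, had 41.6, 46.5, 61.98, 64.6 and 64.2 CPM in WT, 41.03, 19.1, 27.3, 31.5 and 26.8 CPM in HYP, and 13.1, 11.6, 22.3, 11.3 and 22.6 CPM in PCC. For *C4a*, as for *Tnxb*, WT samples were above all others and PCC replicates 2 and 4 the lowest. The log2 fold change of *Tnxb* was -1.19 (SE 0.26, edgeR adjusted *p* = 0.00921, lost under listed totals) in HYP vs. WT and -2.55 (SE 0.58, edgeR adjusted *p* = 0.00622) in PCC vs. WT, and *Cyp21a1* had -2.14 (SE 0.67, edgeR adjusted *p* = 0.0290, lost without WT replicate 3 or 4 or PCC replicate 2 or 3 at *p* up to 0.0643 and under listed totals) in PCC vs. WT. How much of the *Tnxb* signal came from its neighbors was not tested.

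Secreted proteoglycans bind collagen fibers or fill the space between them. *Dcn*, decorin, was listed only for PCC vs. HYP, with 583, 1049, 834, 728 and 926 CPM in HYP and 761, 241, 305, 77.6 and 365 CPM in PCC. PCC replicate 1 lay within the HYP range and PCC replicate 4 was the lowest. *Dcn* did not pass at -1.33 (SE 0.47, edgeR adjusted *p* = 0.108), and without PCC replicate 1 it was at -1.87 (edgeR adjusted *p* = 0.0243). *Vcan*, versican of provisional matrix, had 0.807, 0.663, 0.478, 1.45 and 0.871 CPM in WT, 1.88, 1.57, 2.33, 2.58 and 2.19 CPM in HYP, and 5.06, 4.04, 5.15, 1.95 and 1.98 CPM in PCC. WT samples lay below all MENX samples, at 1.28 (SE 0.30, edgeR adjusted *p* = 0.0129) in HYP vs. WT and 2.06 (SE 0.40, edgeR adjusted *p* = 0.00272) in PCC vs. WT. *Acan*, aggrecan, had 0.363 to 6.46 CPM in WT, 0.168 to 0.918 CPM in HYP and 0 to 0.143 CPM in PCC and fell at -2.63 (SE 0.59, edgeR adjusted *p* = 0.0110) in HYP vs. WT.

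Syndecans and glypicans carry heparan sulfate at the cell surface, and 2 of 5 tested rose and 3 fell (2 kept under listed totals) in PCC vs. WT. *Sdc1*, syndecan of epithelial cells, had 2.23, 2.04, 1.96, 3.23 and 1.45 CPM in WT, 5.65, 1.85, 2.14, 4.02 and 3.47 CPM in HYP, and 23.997, 17.1, 47.6, 53.8 and 10.3 CPM in PCC. PCC samples lay above all others. The means of *Sdc1* were 30.5 ± 19.1 CPM (SD, n = 5) in PCC against 3.42 ± 1.53 CPM in HYP, a log2 change of 3.02 (SE 0.47, edgeR adjusted *p* = 0.00544), and PCC vs. WT gave 3.75 (SE 0.47, edgeR adjusted *p* = 0.000289). *Sdc4*, syndecan of focal adhesions, had 199, 193, 205, 240.3 and 161 CPM in WT, 145, 148, 139.9, 147 and 167 CPM in HYP, and 113, 73.8, 93.4, 96.3 and 134 CPM in PCC. PCC samples lay below all others, and HYP replicate 5 was the highest HYP sample. The means of *Sdc4* were 102 ± 22.7 CPM (SD, n = 5) in PCC against 199.7 ± 28.4 CPM in WT, a log2 change of -1.01 (SE 0.19, edgeR adjusted *p* = 0.00200, lost under listed totals). In HYP vs. WT it was -0.46 (SE 0.13, edgeR adjusted *p* = 0.0299, lost without WT replicate 1, 2, 3 or 4 or HYP replicate 1, 2, 3, 4 or 5 at *p* up to 0.0787 and under library totals or listed totals), and the listed totals brought it to 0.00, with its sign turned. In PCC vs. HYP it was -0.66 (SE 0.18, edgeR adjusted *p* = 0.0444, lost without PCC replicate 2, 3 or 4 or HYP replicate 1, 2, 3, 4 or 5 at *p* up to 0.110 and under deposited size factors or library totals or listed totals).

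Lysyl oxidases cross-link collagen and elastin, and 2 of 2 tested fell (1 kept under library totals or listed totals) in PCC vs. WT. *Lox* had 77.9, 83.7, 205, 256 and 258 CPM in WT, 73.8, 83.1, 203, 104 and 93.1 CPM in HYP, and 59.1, 8.04, 35.7, 3.71 and 36.8 CPM in PCC. All PCC samples lay below all WT and HYP samples, and HYP replicate 3 was far above the other HYP samples. The means of *Lox* were 28.7 ± 22.9 CPM (SD, n = 5) in PCC against 176 ± 89.8 CPM in WT, a log2 change of -2.63 (SE 0.65, edgeR adjusted *p* = 0.00934). In PCC vs. HYP *Lox* did not pass at -2.07 (SE 0.63, edgeR adjusted *p* = 0.0652), and without PCC replicate 1 it was at -2.55 (edgeR adjusted *p* = 0.0390). PCC replicates 2 and 4 were the lowest tumors for *Lox* and for the cortex marker sum, and WT replicates 1 and 2 the lowest WT samples for both. The part of cortex tissue in the *Lox* difference was not tested.

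**Figure D2:**
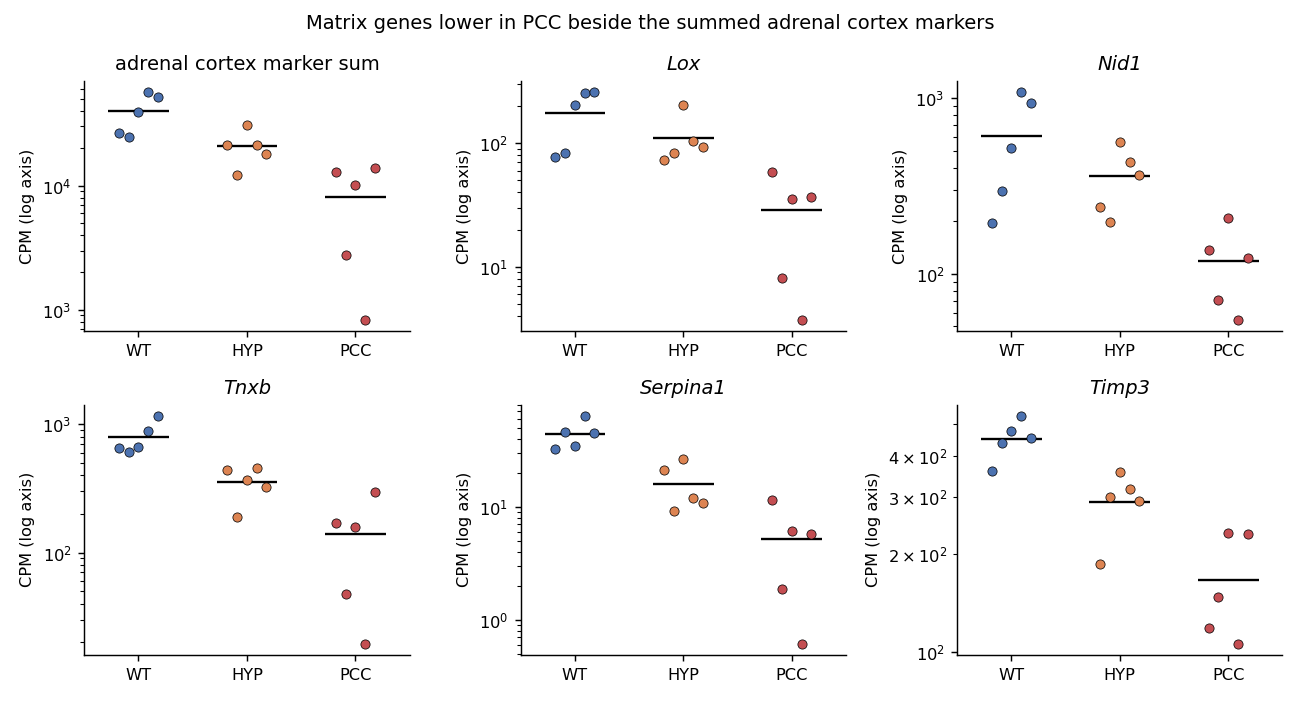
Level in each sample (CPM, log axis) and group mean (bar) of 8 summed adrenal cortex markers, *Lox*, *Nid1*, *Tnxb*, *Serpina1* and *Timp3* in WT, HYP and PCC. The cortex marker sum ran from 829.8 to 13808 CPM in PCC.

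Integrin subunits couple matrix to the cytoskeleton, and 2 of 9 tested rose and 3 fell (2 kept under library totals and 1 under listed totals) in PCC vs. WT. *Itgav*, whose product binds fibronectin and vitronectin, had 31.6, 32.7, 56.5, 60.1 and 76.2 CPM in WT and 26.8, 20.6, 34.2, 30.97 and 27.96 CPM in PCC. WT replicates 1 and 2 lay within the PCC range and the other WT samples above it. The means of *Itgav* were 28.1 ± 5.06 CPM (SD, n = 5) in PCC against 51.4 ± 19.1 CPM in WT, a log2 change of -0.88 (SE 0.22, edgeR adjusted *p* = 0.00960, lost under library totals or listed totals). *Itga3*, a laminin receptor subunit, had 30.04, 35.4, 29.1, 22.7 and 14.9 CPM in WT, 44.9, 47.6, 29.9, 45.7 and 53.3 CPM in HYP, and 54.03, 107, 60.6, 70.1 and 54.4 CPM in PCC. PCC samples lay above all WT samples, at 1.33 (SE 0.30, edgeR adjusted *p* = 0.00615) in PCC vs. WT. *Itga7*, a laminin receptor subunit of muscle, rose at 1.59 (SE 0.32, edgeR adjusted *p* = 0.00688) in HYP vs. WT and 2.10 (SE 0.39, edgeR adjusted *p* = 0.00198) in PCC vs. WT. *Itgb4*, a subunit found in hemidesmosomes and Schwann cells, had 3.42 to 15.1 CPM in WT, 23.1 to 44.6 CPM in HYP and 7.01 to 31.3 CPM in PCC and rose at 1.94 (SE 0.38, edgeR adjusted *p* = 0.00548) in HYP vs. WT. It overlaps *Galk1* on the opposite strand over 776 bases. *Itgb1bp1*, an intracellular partner of integrins and no subunit, did not pass in PCC vs. WT at 0.38 (SE 0.14, edgeR adjusted *p* = 0.0611).

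Metalloproteinases of the MMP family degrade most matrix proteins, and 3 of 5 tested rose and 1 fell in PCC vs. WT. *Mmp12*, the macrophage elastase, had 0.332, 0.616, 0.371, 0.924 and 0.218 CPM in WT, 0.314, 0.504, 0.245, 0.459 and 0.765 CPM in HYP, and 3.99, 16.2, 9.27, 14.9 and 2.28 CPM in PCC. PCC samples lay above all others. The means of *Mmp12* were 9.34 ± 6.27 CPM (SD, n = 5) in PCC against 0.457 ± 0.201 CPM in HYP, a log2 change of 4.20 (SE 0.58, edgeR adjusted *p* = 0.00285), and PCC vs. WT gave 4.20 (SE 0.64, edgeR adjusted *p* = 0.000703). The only listed leukocyte marker of 9, *Cd163* of tissue macrophages, had 8.54, 9.42, 14.5, 16.8 and 22.8 CPM in WT, 36.7, 33.6, 30.5, 37.7 and 44.04 CPM in HYP, and 43.6, 37.6, 37.3, 5.99 and 52.98 CPM in PCC. It rose already in HYP vs. WT, at 1.31 (SE 0.24, edgeR adjusted *p* = 0.00403), and was lowest in PCC replicate 4, where *Mmp12* was at 14.9 CPM. The part of macrophages in the *Mmp12* rise was not tested. *Mmp15*, a membrane-bound protease, had 7.62 to 15.2 CPM in WT, 22.5 to 58.4 CPM in HYP and 38.2 to 67.3 CPM in PCC and rose at 1.86 (SE 0.26, edgeR adjusted *p* = 0.00119) in HYP vs. WT and 2.21 (SE 0.27, edgeR adjusted *p* = 0.000248) in PCC vs. WT.

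*Mmp2*, gelatinase of stromal cells, had 5.88, 9.09, 8.76, 10.95 and 21.5 CPM in WT and 19.1, 79.2, 28.4, 12.7 and 21.8 CPM in PCC. PCC replicate 2 stood far above the other tumors, and PCC replicates 1 and 4 lay within the WT range. The log2 fold change of *Mmp2* was 1.55 (SE 0.50, edgeR adjusted *p* = 0.0331, lost without WT replicate 1, 2, 3 or 4 or PCC replicate 2 at *p* up to 0.0849) in PCC vs. WT, and 0.86 without PCC replicate 2. *Mmp14*, the membrane protease that activates pro-MMP2, with the highest mean FPKM of the family in each group, had 62.2, 55.8, 134, 64.6 and 192 CPM in WT, 79.4, 80.5, 86.9, 89.9 and 97.6 CPM in HYP, and 52.8, 39.5, 73.9, 35.5 and 77.4 CPM in PCC. All PCC samples lay below all HYP samples, but the test was not passed at -0.87 (SE 0.34, edgeR adjusted *p* = 0.0772) in PCC vs. WT or -0.75 (SE 0.23, edgeR adjusted *p* = 0.0664) in PCC vs. HYP. Without WT replicate 2 the first had an edgeR adjusted *p* of 0.0499, and without PCC replicate 5 the other had 0.0271. *Mmp19*, a stromal protease, had 20.6, 20.2, 42.9, 40.2 and 85.3 CPM in WT, 31.8, 27.9, 31.002, 31.3 and 26.8 CPM in HYP, and 12.02, 7.94, 17.4, 5.19 and 18.2 CPM in PCC. PCC samples lay below all others, at -1.77 (SE 0.42, edgeR adjusted *p* = 0.00728) in PCC vs. WT and -1.40 (SE 0.32, edgeR adjusted *p* = 0.0229, lost without PCC replicate 2 or HYP replicate 3 or 4 at *p* up to 0.0622) in PCC vs. HYP. As for the cortex marker sum, WT replicates 1 and 2 and PCC replicates 2 and 4 were the lowest of their groups. The part of cortex tissue in the *Mmp19* fall was not tested.

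ADAMTS proteases process procollagen and cut proteoglycans, and 5 of 6 tested fell (2 kept under library totals or listed totals) in PCC vs. WT and 3 of 3 in HYP vs. WT. *Adamts3*, a procollagen peptidase, had 51.3, 43.4, 34.3, 39.8 and 23.3 CPM in WT, 6.27, 13.9, 20.3, 14.3 and 13.4 CPM in HYP, and 4.46, 1.59, 6.71, 1.24 and 5.47 CPM in PCC. WT lay above both MENX groups, and only PCC replicate 3 reached the HYP range. The means of *Adamts3* were 3.89 ± 2.40 CPM (SD, n = 5) in PCC against 38.4 ± 10.5 CPM in WT, a log2 change of -3.38 (SE 0.47, edgeR adjusted *p* = 0.000470). It was -1.54 (SE 0.30, edgeR adjusted *p* = 0.00575) in HYP vs. WT and -1.92 (SE 0.48, edgeR adjusted *p* = 0.0325, lost without PCC replicate 2 or HYP replicate 2, 3, 4 or 5 at *p* up to 0.0918) in PCC vs. HYP. *Adamts1*, which cleaves versican and aggrecan, had 202, 217, 44.04, 40.4 and 39.1 CPM in WT, 19.4, 22.2, 13.5, 15.6 and 16.1 CPM in HYP, and 23.6, 35.4, 26.8, 63.1 and 28.9 CPM in PCC. WT replicates 1 and 2 were far above the other WT samples, and all WT samples lay above all HYP samples. The log2 fold change of *Adamts1* was -2.73 (SE 0.54, edgeR adjusted *p* = 0.00593) in HYP vs. WT and -1.72 (SE 0.60, edgeR adjusted *p* = 0.0462, lost without WT replicate 1 or 2 or PCC replicate 1, 2, 3 or 5 at *p* up to 0.126 and under library totals or listed totals) in PCC vs. WT. *Adamts4*, an aggrecanase, had 3.05 to 10.1 CPM in WT, 0.796 to 2.04 CPM in HYP and 1.58 to 4.19 CPM in PCC and fell at -1.97 (SE 0.40, edgeR adjusted *p* = 0.00638) in HYP vs. WT.

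*Adamts9*, a protease of versican, had 31.98, 84.5, 51.7, 245 and 97.4 CPM in WT, 10.4, 46.2, 86.4, 123.1 and 109 CPM in HYP, and 8.96, 8.09, 15.9, 23.8 and 24.9 CPM in PCC. PCC samples lay below all WT samples, and HYP replicate 1 lay within the PCC range. Its values were -2.65 (SE 0.53, edgeR adjusted *p* = 0.00303) in PCC vs. WT and -2.32 (SE 0.56, edgeR adjusted *p* = 0.0289, lost without PCC replicate 2 or 3 or HYP replicate 3, 4 or 5 at *p* up to 0.0743) in PCC vs. HYP. *Adamts10*, which binds microfibrils, had 81.7 to 213 CPM in WT and 52.2 to 93.9 CPM in PCC and -1.01 (SE 0.31, edgeR adjusted *p* = 0.0284, lost without WT replicate 1 or 2 or PCC replicate 2, 3 or 4 at *p* up to 0.0680 and under library totals or listed totals) in PCC vs. WT. Among ADAM genes *Adam9*, a sheddase with the highest FPKM of them in each sample, had 73.5, 75.4, 181, 142 and 167 CPM in WT, 71.8, 85.02, 124, 104 and 103 CPM in HYP, and 66.98, 36.8, 69.6, 41.3 and 63.7 CPM in PCC. All PCC samples lay below all WT samples, at -1.21 (SE 0.27, edgeR adjusted *p* = 0.00512, lost under listed totals) in PCC vs. WT and -0.92 (SE 0.23, edgeR adjusted *p* = 0.0333, lost without PCC replicate 2, 3 or 4 or HYP replicate 2, 3, 4 or 5 at *p* up to 0.0880 and under library totals or listed totals) in PCC vs. HYP. For *Adam9*, too, WT replicates 1 and 2 and PCC replicates 2 and 4 were the lowest of their groups, as for the cortex marker sum. The part of cortex tissue in the *Adam9* fall was not tested. *Adam22*, a neuronal receptor without protease activity, had 1.61, 2.32, 2.18, 1.39 and 1.60 CPM in WT, 4.20, 8.51, 6.25, 6.48 and 9.74 CPM in HYP, and 15.3, 17.04, 22.5, 26.8 and 7.58 CPM in PCC. WT lay below both MENX groups, and PCC replicate 5 lay within the HYP range, at 3.23 (SE 0.36, edgeR adjusted *p* = 0.000157) in PCC vs. WT and 1.89 (SE 0.27, edgeR adjusted *p* = 0.00129) in HYP vs. WT. *Adam22* overlaps *Dbf4* over 15651 bases, so its reads are uncertain.

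Tissue inhibitors of metalloproteinases went in different directions. *Timp3*, which binds to the matrix and had the highest FPKM of them in each sample, had 359, 437, 476, 529 and 453 CPM in WT, 186, 298, 356, 317 and 291 CPM in HYP, and 118, 148, 232, 106 and 231 CPM in PCC. WT samples lay above all others, and PCC replicates 3 and 5 overlapped with HYP. The means of *Timp3* were 167 ± 60.7 CPM (SD, n = 5) in PCC against 451 ± 62.1 CPM in WT, a log2 change of -1.47 (SE 0.25, edgeR adjusted *p* = 0.00120), and HYP vs. WT gave -0.67 (SE 0.18, edgeR adjusted *p* = 0.0273, lost without WT replicate 3 or 4 or HYP replicate 2, 4 or 5 at *p* up to 0.0686 and under library totals or listed totals). *Timp2*, which takes part in activating pro-MMP2, had 13.6, 21.6, 15.5, 19.2 and 15.2 CPM in WT, 27.5, 32.9, 23.5, 31.6 and 34.3 CPM in HYP, and 23.997, 22.2, 37.9, 21.6 and 34.2 CPM in PCC. HYP samples lay above all WT samples, at 0.76 (SE 0.17, edgeR adjusted *p* = 0.0105) in HYP vs. WT, and PCC overlapped with WT, at 0.66 (SE 0.22, edgeR adjusted *p* = 0.0402, lost without WT replicate 1, 3, 4 or 5 or PCC replicate 3 or 5 at *p* up to 0.102 and under deposited size factors) in PCC vs. WT. *Timp1*, an inducible inhibitor, was listed only for HYP vs. WT, with 47.97, 40.2, 29.2, 36.5 and 27.6 CPM in WT and 25.8, 19.7, 27.3, 19.5 and 14.1 CPM in HYP. HYP lay below WT in all samples, at -0.82 (SE 0.23, edgeR adjusted *p* = 0.0306, lost without WT replicate 1, 2 or 4 or HYP replicate 2 or 4 at *p* up to 0.0743 and under library totals or listed totals) in HYP vs. WT. *Timp1* overlaps *Syn1* on the opposite strand over 4599 bases, and its reads are uncertain.

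Serpins inhibit serine proteases, and 2 of 8 tested rose and 3 fell (2 kept under listed totals) in PCC vs. WT. *Serpine2* (chromosome 9, 85560863 to 85626094), which inhibits thrombin and urokinase, had 1.99, 5.02, 3.29, 4.42 and 3.27 CPM in WT, 19.4, 29.7, 16.1, 15.9 and 17.6 CPM in HYP, and 196, 59.4, 84.4, 156 and 26.6 CPM in PCC. WT lay below both MENX groups, HYP replicate 2 was far above the other HYP samples, and PCC replicate 5 lay within the HYP range. The means of *Serpine2* were 104 ± 69.8 CPM (SD, n = 5) in PCC against 3.60 ± 1.17 CPM in WT, a log2 change of 4.80 (SE 0.54, edgeR adjusted *p* = 0.000160). It was 2.40 (SE 0.27, edgeR adjusted *p* = 0.000365) in HYP vs. WT and 2.28 (SE 0.45, edgeR adjusted *p* = 0.0143, lost without HYP replicate 3 or 4 at *p* up to 0.0513) in PCC vs. HYP.

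*Serpinh1*, the collagen chaperone of the endoplasmic reticulum, fell in PCC vs. WT, where 6 of 7 fibrillar collagens rose. It was not listed for HYP vs. WT. It had 163, 151, 200.1, 229 and 474 CPM in WT, 170.2, 131, 172, 187 and 158 CPM in HYP, and 48.6, 66.2, 134, 58.1 and 117 CPM in PCC. WT replicate 5 stood far above all other samples, and PCC samples lay below all WT samples. The means of *Serpinh1* were 84.9 ± 38.3 CPM (SD, n = 5) in PCC against 243 ± 132 CPM in WT, a log2 change of -1.52 (SE 0.35, edgeR adjusted *p* = 0.00634, lost under listed totals), and PCC vs. HYP gave -1.07 (SE 0.28, edgeR adjusted *p* = 0.0399, lost without PCC replicate 1, 2 or 4 or HYP replicate 1, 2, 3, 4 or 5 at *p* up to 0.0980 and under deposited size factors or library totals or listed totals). *Serpina1*, antitrypsin, had 32.6, 46.4, 34.6, 63.7 and 45.5 CPM in WT, 21.3, 9.18, 26.4, 12.1 and 10.8 CPM in HYP, and 11.6, 1.88, 6.10, 0.618 and 5.77 CPM in PCC. WT samples lay above all others, and PCC replicates 2 and 4 were the lowest, as for the cortex markers. *Serpina1* was -1.51 (SE 0.31, edgeR adjusted *p* = 0.00772) in HYP vs. WT and -3.15 (SE 0.59, edgeR adjusted *p* = 0.00213) in PCC vs. WT, and the part of cortex tissue in its fall was not tested.

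**Figure D3:**
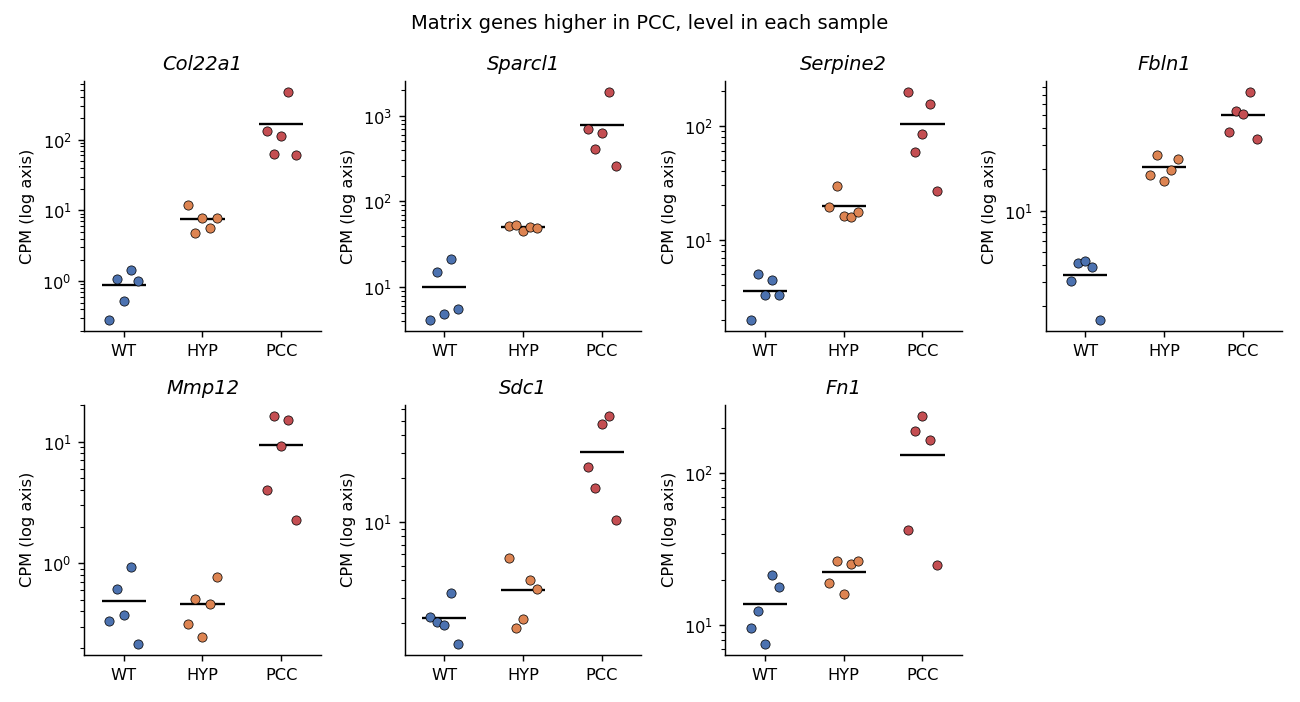
Level in each sample (CPM, log axis) and group mean (bar) of 7 members higher in PCC, in WT, HYP and PCC. *Col22a1* ran from 60.3 to 464 CPM in PCC.

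The 15 members with too few counts to test wherever they were listed had at most 4.87 CPM, for *Mmp8*, neutrophil collagenase, in PCC replicate 1. *Serpina9*, a serpin of germinal center B cells, and *Mmp20*, the enamel protease, had 0 counts in all PCC samples. WT replicates 1 to 5 had 6, 2, 3, 5 and 1 counts of *Serpina9* and 1, 6, 3, 4 and 0 of *Mmp20*. Against a floor of 3 counts per library the bounds of PCC vs. WT were 1.35-fold and 1.08-fold. WT itself lay near that floor, so neither gene was read as lower.

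Genes that act on the matrix without being members were read from fixed lists. Of 24 genes for collagen processing and secretion 10 were tested in PCC vs. WT, 3 rising and 6 falling (3 kept under library totals and 2 under listed totals) with a median log2 fold change of -0.84. *P3h2*, a prolyl hydroxylase of collagen, fell most at -2.52 (SE 0.35, edgeR adjusted *p* = 0.000470), and *P4ha1*, a prolyl hydroxylase that stabilizes the collagen helix, rose most at 1.01 (SE 0.35, edgeR adjusted *p* = 0.0469, lost without WT replicate 1, 2, 3 or 4 or PCC replicate 1, 2, 3 or 4 at *p* up to 0.121 and under deposited size factors). Of 3 tested in HYP vs. WT 2 fell (0 kept under listed totals), *Pcolce*, an enhancer of procollagen cleavage, most at -1.29 (SE 0.34, edgeR adjusted *p* = 0.0227, lost without HYP replicate 2, 3, 4 or 5 at *p* up to 0.0709 and under listed totals), and in PCC vs. HYP 1 of 5 fell, *P3h2* at -1.59 (SE 0.37, edgeR adjusted *p* = 0.0258, lost without PCC replicate 2 or HYP replicate 2, 3 or 4 at *p* up to 0.0759). Of 16 hyaluronan genes 8 were tested in PCC vs. WT, 3 rising and 5 falling (4 kept under library totals and 3 under listed totals). *Hmmr*, a hyaluronan receptor and spindle protein, rose most at 3.21 (SE 0.34, edgeR adjusted *p* = 0.000130), and *Tnfaip6*, which modifies hyaluronan during inflammation, fell most at -3.81 (SE 0.67, edgeR adjusted *p* = 0.00149). Without PCC replicate 5, the highest tumor, *Tnfaip6* was at -4.77. Of 4 tested in HYP vs. WT 1 rose and 3 fell (1 kept under library totals or listed totals), led by *Hmmr* at 1.93 (SE 0.28, edgeR adjusted *p* = 0.00132) and *Hapln3*, a link protein, at -2.07 (SE 0.32, edgeR adjusted *p* = 0.00185). In PCC vs. HYP 1 of 3 fell, *Tmem2*, a cell surface hyaluronidase, at -1.51 (SE 0.30, edgeR adjusted *p* = 0.0139).

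Of 22 adaptors that connect integrins to actin 11 were tested in PCC vs. WT, 2 rising and 8 falling (4 kept under library totals and 2 under listed totals) with a median log2 fold change of -0.73. *Zyx*, zyxin of focal adhesions, fell most at -1.73 (SE 0.23, edgeR adjusted *p* = 0.000427), and *Tln2*, a talin that activates integrins, rose most at 1.96 (SE 0.27, edgeR adjusted *p* = 0.000446). Of 8 tested in HYP vs. WT 2 rose and 2 fell (1 kept under library totals and 0 under listed totals), led by *Tln2* at 2.03 (SE 0.30, edgeR adjusted *p* = 0.00149) and *Zyx* at -1.02 (SE 0.20, edgeR adjusted *p* = 0.00634, lost under listed totals), and in PCC vs. HYP 2 of 4 fell (0 kept under library totals or listed totals), *Vcl*, vinculin, most at -0.97 (SE 0.26, edgeR adjusted *p* = 0.0417, lost without PCC replicate 2 or 3 or HYP replicate 1, 2, 3, 4 or 5 at *p* up to 0.102 and under library totals or listed totals). Of 13 plasminogen, cathepsin and other turnover genes 5 were tested in PCC vs. WT, 3 rising and 1 falling (0 kept under listed totals). *Sulf1*, which trims heparan sulfate, rose most at 4.94 (SE 0.93, edgeR adjusted *p* = 0.00219) and in PCC vs. HYP at 3.18 (SE 0.70, edgeR adjusted *p* = 0.0214, lost without HYP replicate 3, 4 or 5 at *p* up to 0.0698), and *Ctsl*, a lysosomal cathepsin, fell at -0.66 (SE 0.14, edgeR adjusted *p* = 0.00449, lost under listed totals). *Reck*, a membrane inhibitor of metalloproteinases, rose at 1.04 (SE 0.26, edgeR adjusted *p* = 0.0168) in HYP vs. WT. Of 6 other matrix receptors only *Mrc2*, which takes up collagen, was listed, at -0.96 (SE 0.34, edgeR adjusted *p* = 0.0474, lost without WT replicate 1, 2, 3 or 4 or PCC replicate 1, 2, 3 or 4 at *p* up to 0.113 and under library totals or listed totals) in PCC vs. WT.

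Markers of matrix-making cells were read beside the members. Of 8 pericyte and smooth muscle markers 6 were tested in PCC vs. WT, 4 rising and 1 falling (0 kept under library totals or listed totals), and the 4 with values in all samples summed to 84.5, 89.4, 52.001, 92.7 and 52.6 CPM in WT, 125, 174, 141, 144 and 155 CPM in HYP, and 1272, 687, 1298, 2291 and 555 CPM in PCC. *Rgs5*, a pericyte signalling regulator, made up most of this sum in every PCC sample, and PCC replicate 4 was its highest and PCC replicate 5 its lowest tumor, as for *Sparcl1*. The other summed markers had other orders, *Acta2*, smooth muscle actin, being highest in PCC replicate 1 and *Notch3*, a receptor of mural cells, and *Kcnj8* in PCC replicate 3. *Acta2* was at 1.65 (SE 0.46, edgeR adjusted *p* = 0.0181) and *Notch3* at 2.27 (SE 0.44, edgeR adjusted *p* = 0.00247) in PCC vs. WT. *Rgs5* had 5.51 (SE 0.45, edgeR adjusted *p* = 7.76e-05) in PCC vs. WT, 1.88 (SE 0.20, edgeR adjusted *p* = 0.000287) in HYP vs. WT and 3.50 (SE 0.41, edgeR adjusted *p* = 0.00164) in PCC vs. HYP. The part of pericytes in the rise of *Sparcl1* was not tested. Of 10 endothelial markers 7 were tested in PCC vs. WT, 1 rising and 5 falling (3 kept under library totals and 2 under listed totals), and the 6 with values in all samples summed to 484, 455, 411, 513 and 525 CPM in WT, 286, 278, 355, 298 and 273 CPM in HYP, and 176, 179, 284, 169 and 303 CPM in PCC. *Tek*, the angiopoietin receptor, fell most at -1.95 (SE 0.32, edgeR adjusted *p* = 0.00101), and *Vwf*, von Willebrand factor, rose at 1.48 (SE 0.28, edgeR adjusted *p* = 0.00230). Of 8 fibroblast markers 3 were tested in PCC vs. WT, 2 rising and 1 falling. *Pi16*, of adventitial fibroblasts, fell at -2.46 (SE 0.60, edgeR adjusted *p* = 0.00845), and *Pdgfrl*, a relative of PDGF receptors, rose at 1.20 (SE 0.39, edgeR adjusted *p* = 0.0354, lost without WT replicate 1, 2, 3 or 5 or PCC replicate 2 or 3 at *p* up to 0.0983), as did *Cd34* (below). The 3 with values in all samples, *Pi16*, *Cd34* and *Pdgfra*, a PDGF receptor, summed to 82.8, 104, 48.8, 64.9 and 27.4 CPM in WT, 29.04, 33.1, 36.6, 33.1 and 33.5 CPM in HYP, and 12.2, 30.9, 31.1, 25.2 and 34.2 CPM in PCC. *Pi16* was the largest part of this sum in each WT sample, and *Pdgfra* alone had 5.11 to 9.004 CPM in WT, 6.34 to 13.2 CPM in HYP and 1.52 to 8.89 CPM in PCC. The part of fibroblast number in the fibrillar collagen rise was not tested.

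Of 8 Schwann and sustentacular markers 6 were tested in PCC vs. WT, 4 rising and 2 falling (1 kept under library totals or listed totals), and their sum was 74.6, 89.02, 86.9, 94.6 and 45.1 CPM in WT, 64.3, 82.9, 93.6, 58.7 and 63.4 CPM in HYP, and 27.2, 38.7, 54.99, 16.9 and 45.1 CPM in PCC. *S100b* was the largest part of this sum in every sample but PCC replicates 2, 3 and 4. *S100b*, a calcium-binding protein of glia, fell most at -3.22 (SE 0.40, edgeR adjusted *p* = 0.000286), and *Gfap*, a glial filament, rose most at 1.92 (SE 0.39, edgeR adjusted *p* = 0.00351). *Sox10*, a transcription factor of the glial lineage, rose most in HYP vs. WT at 2.11 (SE 0.43, edgeR adjusted *p* = 0.00695) and was highest in HYP replicate 2, as were *Col28a1* and *Itgb4* among HYP samples, and the part of glial cells in these levels was not tested. Of 5 adipocyte markers 0 were listed. Among chromaffin markers 7 of 7 tested rose in PCC vs. WT, *Slc18a2*, the vesicular monoamine transporter, most at 3.86 (SE 0.42, edgeR adjusted *p* = 0.000148). Among cortex markers 8 of 10 fell (7 kept under library totals and 5 under listed totals) in PCC vs. WT, *Nr5a1*, a steroidogenic transcription factor, most at -2.72 (SE 0.63, edgeR adjusted *p* = 0.00658), and 3 of 7 fell (2 kept under listed totals) in HYP vs. WT, *Fdx1*, an electron carrier for steroid synthesis, most at -1.52 (SE 0.24, edgeR adjusted *p* = 0.00201).

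The remaining leaders of the marker lists were as follows. *Kcnj8*, a pericyte potassium channel, fell at -1.04 (SE 0.35, edgeR adjusted *p* = 0.0403, lost without WT replicate 1, 2 or 4 or PCC replicate 2, 3, 4 or 5 at *p* up to 0.0936 and under library totals or listed totals) in PCC vs. WT and -1.20 (SE 0.26, edgeR adjusted *p* = 0.00906, lost under listed totals) in HYP vs. WT. *Tek* was at -1.01 (SE 0.16, edgeR adjusted *p* = 0.00205) and *Pi16* at -2.03 (SE 0.41, edgeR adjusted *p* = 0.00635) in HYP vs. WT, and *Vwf* at 0.89 (SE 0.25, edgeR adjusted *p* = 0.0468, lost without PCC replicate 1, 2 or 3 or HYP replicate 1, 2, 3, 4 or 5 at *p* up to 0.118) in PCC vs. HYP. *Cd34*, found on fibroblasts and endothelium, rose at 1.20 (SE 0.36, edgeR adjusted *p* = 0.0240, lost without WT replicate 1, 3 or 4 or PCC replicate 3 at *p* up to 0.0605) in PCC vs. WT and 0.72 (SE 0.19, edgeR adjusted *p* = 0.0235, lost without WT replicate 1, 3 or 4 or HYP replicate 5 at *p* up to 0.0689) in HYP vs. WT. *S100b* was at -1.07 (SE 0.30, edgeR adjusted *p* = 0.0316, lost without WT replicate 1, 3 or 4 or HYP replicate 1, 2, 4 or 5 at *p* up to 0.0735 and under library totals or listed totals) in HYP vs. WT. *Cd163* was at 1.297 (SE 0.45, edgeR adjusted *p* = 0.0474, lost without WT replicate 1, 2, 3 or 4 or PCC replicate 1, 2, 3 or 5 at *p* up to 0.121 and under deposited size factors) in PCC vs. WT. *Ddc*, the decarboxylase of catecholamine synthesis, rose at 1.87 (SE 0.39, edgeR adjusted *p* = 0.00783) in HYP vs. WT, and *Slc18a2* at 2.82 (SE 0.33, edgeR adjusted *p* = 0.00164) in PCC vs. HYP.

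Promoters from RefSeq on the rat build GRCr8, 250 bases before to 50 after the start of the gene, matched 84 of the 119 members by symbol. Those of members among the 5 largest non-overlapping calls of a direction in at least 2 comparisons are shown because these members led more than 1 comparison, without *Col22a1*, which was not matched. Both strands were searched for ACGTG, a form of the core of the hypoxia response element, TGACTCA, the AP-1 element, and TGACGTCA, the cyclic AMP response element. The form GCGTG of that core was not searched, so a promoter without ACGTG may still hold the core. ACGTG was in 9 of the 84 promoters (10.7%) and in 19.7% of all 27457 promoters of this length, TGACTCA in 2 (2.38%) and 4.53%, and TGACGTCA in 3 (3.57%) and 1.91%. Capitals mark these letters, and a match is a description, not a site or a cause. The promoters of *Sparcl1* (chr14:5937234-5937533, plus strand), *Serpine2* (chr9:88637153-88637452, minus strand) and *Serpina1* (chr6:128653076-128653375, minus strand) hold no match to these. *Col24a1* (chr2:236872384-236872683, plus strand) holds TGACGTCA at bases 202 to 209. *Mmp12* (chr8:12866402-12866701, plus strand) holds CACGTG at bases 125 to 130, where ACGTG on the 2 strands overlaps, and on the minus strand TGACTCA at bases 164 to 170 and ACGTG at bases 183 to 187. *Adamts3* (chr14:18514999-18515298, plus strand) holds ACGTG at bases 66 to 70.
Sparcl1: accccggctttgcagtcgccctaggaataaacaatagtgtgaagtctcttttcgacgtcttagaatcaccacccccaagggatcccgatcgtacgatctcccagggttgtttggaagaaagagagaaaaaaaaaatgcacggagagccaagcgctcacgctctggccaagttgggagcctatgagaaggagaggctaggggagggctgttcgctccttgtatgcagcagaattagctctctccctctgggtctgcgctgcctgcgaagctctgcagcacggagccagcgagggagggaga
Serpine2: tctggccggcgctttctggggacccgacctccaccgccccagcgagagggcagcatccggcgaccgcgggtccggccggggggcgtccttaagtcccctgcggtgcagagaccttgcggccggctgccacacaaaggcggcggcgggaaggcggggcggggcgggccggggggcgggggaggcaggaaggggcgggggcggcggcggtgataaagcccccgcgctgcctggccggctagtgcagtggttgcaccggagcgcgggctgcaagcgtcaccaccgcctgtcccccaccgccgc
Serpina1: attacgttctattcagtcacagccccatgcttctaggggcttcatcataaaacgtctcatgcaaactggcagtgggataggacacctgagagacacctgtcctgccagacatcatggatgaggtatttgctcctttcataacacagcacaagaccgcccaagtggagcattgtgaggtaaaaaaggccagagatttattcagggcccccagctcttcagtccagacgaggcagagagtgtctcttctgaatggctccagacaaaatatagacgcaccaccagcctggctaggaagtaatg
Col24a1: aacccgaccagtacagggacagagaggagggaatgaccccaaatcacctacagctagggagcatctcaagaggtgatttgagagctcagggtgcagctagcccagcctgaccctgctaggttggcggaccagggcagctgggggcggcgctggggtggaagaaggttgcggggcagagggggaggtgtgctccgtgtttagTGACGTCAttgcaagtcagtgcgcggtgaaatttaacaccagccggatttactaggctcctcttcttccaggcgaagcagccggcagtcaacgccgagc
Mmp12: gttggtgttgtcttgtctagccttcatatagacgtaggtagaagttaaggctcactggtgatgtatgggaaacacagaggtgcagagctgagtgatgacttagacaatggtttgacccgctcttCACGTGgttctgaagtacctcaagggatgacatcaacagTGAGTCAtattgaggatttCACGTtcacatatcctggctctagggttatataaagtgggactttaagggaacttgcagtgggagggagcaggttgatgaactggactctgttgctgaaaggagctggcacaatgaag
Adamts3: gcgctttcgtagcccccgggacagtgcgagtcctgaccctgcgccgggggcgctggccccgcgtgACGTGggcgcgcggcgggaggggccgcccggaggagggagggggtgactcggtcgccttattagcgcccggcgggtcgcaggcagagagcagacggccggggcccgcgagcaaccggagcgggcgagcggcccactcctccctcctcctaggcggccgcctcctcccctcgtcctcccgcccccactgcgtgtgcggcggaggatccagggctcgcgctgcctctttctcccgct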

How the data were processed

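The authors' read counts per gene, as deposited, came from poly-A libraries (NEBNext Ultra kit) mapped to Rn06 with HISAT2 2.0.5 and counted with featureCounts 1.5.0-p3 according to the submitters' notes; the strand setting is not stated. The deposited FPKM were computed by the authors per gene length and library size. The deposited normalized signal values were counts divided by the authors' size factors. The authors' p-value columns hold raw and adjusted results of DESeq2 and served here only to recover how many genes had been tested (18790, 18057 and 17454). The authors' log2 fold changes, as deposited, were not used. Counts were analysed with edgeR 4.0.16 (TMM over listed genes, low counts filtered), DESeq2 1.42.0, R 4.3.3, limma 3.58.1, Python 3.11.15, numpy 2.4.6, pandas 2.3.3 and matplotlib 3.10.9. Adjusted p assume that listed genes rank first among those tested. The 5492 genes with values in all samples set the common scale. Members and lists were chosen with earlier results of these data known. Genes named, less items withheld for evaluation, were the 5 largest non-overlapping calls per direction and comparison with at least 1 CPM, the member of each role with the highest mean FPKM over its own samples, a fixed list, members called in opposite directions in the steps to HYP and on to PCC, and each other list's largest calls. *Acan*, *Adam22*, *Col16a1*, *Col2a1*, *Col4a4*, *Emilin1*, *Fbln2*, *Itga3*, *Itga7*, *Itgb4*, *Lamb2*, *Lamc3*, *Mmp15*, *Tnr*, *Mmp8*, *Mmp20* and *Serpina9* were named after their values were seen. The tables were normalized separately, so tests were run within each table.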

Additional observations from a re-analysis of the deposited data

Results flagged for a closer look

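In 11 of 133 groups of 5 samples examined, a sample lay far from the others. Chance would flag about 1 in 20 groups if values were normally distributed and groups independent. The CPM were not transformed and the groups share libraries, so the flags were not read as an excess over chance. These were *Col22a1* (464 CPM) and *Sparcl1* (1862 CPM) in PCC replicate 4, *Mmp2* in PCC replicate 2 (79.2 CPM), *Col28a1* (36.7 CPM), *Postn* (3.47 CPM) and *Serpine2* (29.7 CPM) in HYP replicate 2, *Lox* in HYP replicate 3 (203 CPM), *Sdc4* in HYP replicate 5 (167 CPM), and *Fbn1* (23.7 CPM), *Serpinh1* (474 CPM) and *Sparc* (702 CPM) in WT replicate 5.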

How the results depend on the processing

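Members lower in PCC than in WT numbered 31, and 51 with DESeq2 and 20 when scaled to the summed counts of listed genes (listed total). Members lower in HYP than in WT numbered 16, and 9 with recovered library totals, 5 with the listed total and 10 with at least 10 counts in every sample. Members lower in PCC than in HYP numbered 11, and 28 with DESeq2, 7 with library totals, 5 with the listed total, 27 when adjusted over the listed genes alone and 3 with a replicate block. Members higher in PCC than in HYP numbered 13, and 7 with that block. Correlations between samples sharing a number ran from -0.174 to 0.275 and were not compared with those between samples of different numbers. They therefore cannot decide whether the numbers pair the samples. In HYP vs. WT *Sdc4* turned to 0.004535 (edgeR adjusted p = 1) with the listed total. Adjustment over fewer genes and higher count minimums act by construction; otherwise the cause was not tested.

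Leaving out each library in turn gave 34 to 43 higher and 28 to 36 lower members in PCC vs. WT, 26 to 32 and 9 to 20 in HYP vs. WT, and 10 to 14 and 1 to 15 in PCC vs. HYP, with fewer samples by construction. The share of calls that were higher was 55.7%, 66% and 54.2% in the same order, and 69.7%, 86.5% and 73.7% with the listed total and 65.2%, 78% and 66.7% with library totals; DESeq2 gave 33.3% in PCC vs. HYP. The median log2 fold change of all genes moved by 0.50, 0.46 and 0.15 with the listed total, by 0.29, 0.19 and 0.22 with library totals, and in PCC vs. HYP by -0.17 with DESeq2 and 0.11 with the deposited size factors. Over the genes named or called and all alternatives, 4245 values kept their direction and side of the threshold, 594 lost the threshold, 52 gained it and 1 turned. With a library left out, 4 values gained the threshold in PCC vs. WT, 1 in HYP vs. WT and 8 in PCC vs. HYP. In the same order 163, 138 and 99 lost it.

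With 16315018 to 23831269 counted reads per sample, 15 members had too few counts to test, and members listed in a single table have no level in the remaining group.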
